A study of Homo sapiens with 12 samples.

Results

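The small heat shock proteins and the BAG family of co-chaperones were examined as a set of 10 genes, chosen by name: HSPB1, HSPB8, HSPB11 and CRYAB on the small heat shock protein side, and BAG1 to BAG6 on the co-chaperone side. They are 10 of the 43735 genes listed in the count table. The rule that chose them is their names, and it was set with earlier results of these data known. The data are mRNA sequencing counts from cultures of MM1S and MM1R, multiple myeloma cell lines that stem from the same patient. MM1S is labelled as sensitive and MM1R as resistant to glucocorticoids. Withaferin A (WA) is a plant steroidal lactone that binds cysteine residues covalently.

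The 4 groups were untreated MM1S, MM1S exposed to 1 µM WA for 3 h, untreated MM1R, and MM1R exposed to WA in the same way, with 3 cultures in each. All were grown in RPMI-1640 medium with serum and antibiotics. Cultures of MM1S were at passage 16, 22 or 23 and cultures of MM1R at passage 4, 6 or 7, with an untreated and a WA culture at each passage. The lines had no passage in common, so a difference between lines and a difference between early and late passage cannot be told apart. Whether untreated cultures received the solvent of WA is not given in the sources used here.

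Small heat shock proteins are chaperones without ATPase activity that hold unfolding proteins in a soluble state until other chaperones take them over. BAG proteins bind the ATPase domain of HSP70 through the BAG domain, release its nucleotide, and tie the chaperone to other routes such as the proteasome or autophagy. BAG3 binds HSPB8 and HSPB6 directly and, with the ubiquitin ligase STUB1 (CHIP), directs HSP70 clients to autophagosomes, a route known from muscle and from cells under proteotoxic stress. Plasma cells and myeloma cells secrete large amounts of antibody and depend strongly on such quality control.

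Between 17625110 and 19368343 reads per library were counted on genes. The 9 plasma cell markers examined, among them SDC1 and XBP1, were all present in every library, with summed levels of 5171 to 6830 CPM, the read count scaled to library size. Summed markers of B cells reached at most 0.213 CPM, of T cells 11.9 CPM, of monocytes 0.669 CPM and of erythroid cells 9.55 CPM. Muscle and lens markers, from tissues known for high small heat shock protein levels, were at 0 reads in all 12 libraries. The sum of the plasma cell markers was lower with WA without overlap. It was 5640 to 5995 CPM untreated and 5171 to 5314 CPM with WA in MM1S, and 6404 to 6830 and 5283 to 5941 CPM in MM1R. Single markers were not compared between groups, so the sum may hide markers that went the other way. Of single genes kept by the filter described below, 30.3% in MM1S and 33.3% in MM1R did not overlap between untreated and WA cultures. The fibroblast list was higher with WA through COL1A1, as COL3A1 was at 0 reads in every library. The list summed to 0.447 to 1.09 CPM in untreated MM1S and 2.30 to 6.55 CPM with WA, and to 1.46 to 2.34 CPM in untreated MM1R and 5.23 to 17.9 CPM with WA, and the part of either list in the results below was not tested.

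Of the 10 members, 9 passed the filter on low counts and were tested. CRYAB was not tested, and HSPB8 passed through the WA cultures of MM1R alone, since it had no read in any MM1S library and under 10 in untreated MM1R. Tests are those of edgeR's quasi-likelihood method over 14085 genes, with p-values adjusted by the Benjamini-Hochberg method. A WA effect was called at an adjusted p of 0.05, and a difference between lines at an adjusted p of 0.01 with a log2 fold change of at least 1 in size.

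The upstream sequences of 4 members are shown because these genes were either called with WA or stood closest to the limit, and because heat shock factors bind repeated GAA units in promoters. Each run is the 250 bases before the transcription start in RefSeq (GRCh38.p14), read 5′ to 3′ on the + strand, which is the gene's strand in all 4. The positions are chr7:76302423-76302672 for HSPB1, chr12:119178681-119178930 for HSPB8, chr6:57172076-57172325 for BAG2 and chr10:119651130-119651379 for BAG3. Capitals mark the heat shock motif GAANNTTC, which is a head-to-head pair of GAA units.
HSPB1: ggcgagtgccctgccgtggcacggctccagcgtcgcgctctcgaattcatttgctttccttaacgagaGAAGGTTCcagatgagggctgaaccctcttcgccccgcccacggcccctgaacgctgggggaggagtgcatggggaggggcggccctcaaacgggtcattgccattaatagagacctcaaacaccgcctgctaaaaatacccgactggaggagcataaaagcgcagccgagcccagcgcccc
HSPB8: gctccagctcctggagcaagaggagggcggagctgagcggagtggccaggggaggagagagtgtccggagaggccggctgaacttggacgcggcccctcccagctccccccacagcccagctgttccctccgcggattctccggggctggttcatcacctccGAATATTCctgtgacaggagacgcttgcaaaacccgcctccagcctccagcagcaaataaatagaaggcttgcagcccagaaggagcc
BAG2: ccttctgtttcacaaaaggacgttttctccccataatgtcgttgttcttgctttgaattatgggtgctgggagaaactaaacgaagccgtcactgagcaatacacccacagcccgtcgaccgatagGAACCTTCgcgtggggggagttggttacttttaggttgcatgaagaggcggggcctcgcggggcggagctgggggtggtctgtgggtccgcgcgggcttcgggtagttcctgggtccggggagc
BAG3: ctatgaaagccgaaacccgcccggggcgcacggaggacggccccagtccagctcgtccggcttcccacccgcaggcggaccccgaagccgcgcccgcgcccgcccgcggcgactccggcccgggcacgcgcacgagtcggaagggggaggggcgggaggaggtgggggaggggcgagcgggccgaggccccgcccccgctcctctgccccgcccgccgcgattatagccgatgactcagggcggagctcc

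The motif GAANNTTC lay at −182 to −175 in HSPB1, at −88 to −81 in HSPB8 and at −124 to −117 in BAG2, counted from the transcription start. It was present in 5.781% of all 35116 promoter windows of the same length, and either GAANNTTC or the tail-to-tail pair TTCNNGAA in 11.58%. Both strands were searched, and the 2 pairs read the same on both strands. BAG3 held neither pair in its window, and neither did HSPB11, BAG1, BAG5 or BAG6. No member held the pairs joined to a run of 3 units (0.4414% of windows), the NRF2 core TGACNNNGC (10.91%), the ATF4 core TGATGNAA (3.144%) or TATAAA (10.72%). Windows were found for 8 of the 10 members, all but CRYAB and BAG4. The windows of HSPB1, HSPB8 and BAG3 overlapped no annotated exon, whereas that of BAG2 overlapped an exon of the antisense gene ZNF451-AS1. Those of BAG1 and BAG6 overlapped exons of BAG1 and CHMP5 and of BAG6 and APOM. The window of BAG5 lay inside the gene's span, and the bases just after its start matched no transcript of the gene. For BAG1, BAG5 and BAG6 the window may thus not lie before the start in use. A match of letters is a description of the window and was tested against no binding data.

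HSPB1 (HSP27), the most widely expressed small heat shock protein, rose 16.7-fold with WA in either line, from a basal level that was higher in MM1R in every culture. The gene lies on chromosome 7 (GRCh37, chr7:75931990-75933612, + strand, 3 exons). In MM1S it had 416, 459 and 440 reads untreated at passages 16, 22 and 23, and 7074, 3563 and 10000 reads with WA. In MM1R it had 789, 1166 and 1083 reads untreated at passages 4, 6 and 7, and 9889, 10774 and 27508 reads with WA. The groups did not overlap in either line, the culture with the fewest reads under WA being that of passage 22 and the culture with the most that of passage 7. Mean levels went from 22.4 ± 1.16 to 373 ± 178 CPM in MM1S and from 56.1 ± 13.0 to 936 ± 640 CPM in MM1R (SD, n = 3). In bulk RNA, more RNA in each cell and more cells with the RNA cannot be told apart.

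By edgeR's quasi-likelihood test, the log2 fold change of HSPB1 was 4.06 (SE 0.46, 95% interval 3.08 to 5.04, adjusted p = 9.86e-05) in MM1S. It was 4.06 (SE 0.45, 95% interval 3.09 to 5.03, adjusted p = 9.43e-05) in MM1R. Without the WA culture of passage 7 the value in MM1R was 3.36, and the call was kept. HSPB1 ranked 60th by p among all tested genes in MM1S and 56th in MM1R.

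BAG3, the stress-responsive BAG protein that couples HSP70 and small heat shock proteins to autophagy, had the largest WA change of the tested members. It lies on chromosome 10 (GRCh37, chr10:121410892-121437331, + strand, 4 exons). Untreated MM1S had 1143, 1251 and 1097 reads at passages 16, 22 and 23, against 26675, 15248 and 35227 reads with WA. Untreated MM1R had 1077, 1039 and 859 reads at passages 4, 6 and 7, against 24215, 27563 and 52592 reads with WA. All 6 WA cultures stood above all 6 untreated ones, the lowest of the former having 15248 reads and the highest of the latter 1251, and passages 22 and 7 were again the lowest and the highest under WA. Mean levels were 59.5 ± 5.05 and 1394 ± 556 CPM in MM1S, and 54.4 ± 3.76 and 2014 ± 1035 CPM in MM1R, untreated and with WA in that order (SD, n = 3).

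The fitted change of BAG3 in MM1R was 5.21 on the log2 scale (SE 0.37, 95% interval 4.42 to 6.00), or about 37-fold, and ranked 7th by p among all genes tested by edgeR's quasi-likelihood test. In MM1S it was 4.55 (SE 0.36, 95% interval 3.78 to 5.32), or 23.4-fold, and ranked 13th. The adjusted p was 2.43e-06 in MM1R and 5.18e-06 in MM1S. Leaving out the WA culture of passage 7 gave 4.73 in MM1R.

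HSPB8 (HSP22), the small heat shock protein that partners BAG3 in assisted autophagy, was at 0 reads in all 6 MM1S libraries, with or without WA. In MM1R it had 7, 9 and 4 reads untreated at passages 4, 6 and 7, and 16, 30 and 51 reads with WA. The MM1R groups did not overlap, but the counts were low throughout, with means of 0.364 ± 0.130 CPM untreated and 1.88 ± 1.14 CPM with WA (SD, n = 3). The log2 fold change in MM1R was 2.33 (SE 0.56, 95% interval 1.09 to 3.58, adjusted p = 0.0218 by edgeR's quasi-likelihood test). As HSPB8 entered the test through the group in which it was high, this value is given as a description and supports no statement on WA. The call was lost when any untreated MM1R culture was left out (adjusted p = 0.0547, 0.0581 and 0.0845 without passages 4, 6 and 7) and without the WA culture of passage 7 (log2 fold change 1.80, adjusted p = 0.0865). A count of 0 in MM1S allows up to 3 reads per library, a mean of 0.153 CPM untreated and 0.162 CPM with WA. The gene spans chr12:119609360-119662660 on the + strand (GRCh37, 3 exons in the canonical transcript), and the RefSeq start used for the window above lies inside that span.

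CRYAB (αB-crystallin), a small heat shock protein of lens and muscle, was at or near 0. It had 0 reads in all 3 untreated MM1R cultures and in 2 of the 3 with WA, and 7 reads in the WA culture of passage 7. In MM1S it had 1 read in the untreated culture of passage 23, and 1 and 3 reads in the WA cultures of passages 16 and 23. No difference was detectable at this depth. The HSPB2 and C11orf52 genes, which overlap CRYAB on the other strand, had no reads.

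HSPB11, named IFT25 in newer annotations, is counted with the small heat shock proteins by its name and works in intraflagellar transport. Its level did not pass the test for any comparison. It had 457, 492 and 575 reads in untreated MM1S and 456, 446 and 493 with WA. In MM1R it had 425, 462 and 538 reads untreated and 385, 487 and 437 with WA. All groups overlapped, and the WA changes were −0.04 (95% interval −0.36 to 0.28) in MM1S and −0.08 (−0.40 to 0.24) in MM1R on the log2 scale.

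**Figure D1:**
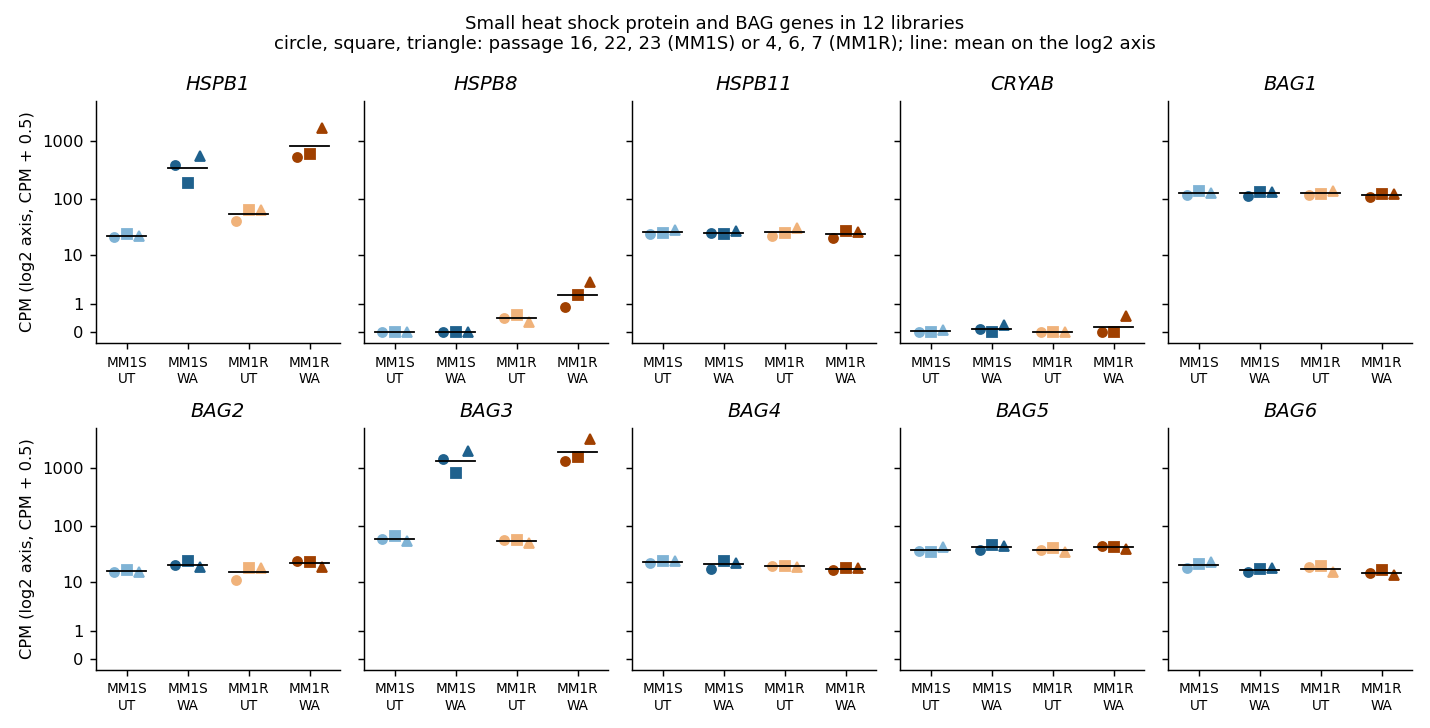
Level of each of the 10 members in the 12 libraries, in CPM on a log2 axis with 0.5 CPM added. Symbols are cultures and mark passage, horizontal lines are group means on that axis; HSPB1 and BAG3 separate by treatment in either line, HSPB8 has reads in MM1R alone, and the BAG genes other than BAG3 lie nearly level.

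BAG2, a co-chaperone that inhibits the ligase activity of STUB1, was higher with WA in all 6 passages and stood closest to the limit without passing it. The share of all genes with the same direction in all 6 passages was not examined. Such agreement is therefore a description, here and for BAG5 and BAG6 below. MM1S had 292, 321 and 307 reads untreated at passages 16, 22 and 23, against 374, 445 and 338 with WA. MM1R had 213, 326 and 308 reads untreated at passages 4, 6 and 7, against 457, 415 and 306 with WA. In CPM the groups did not overlap in either line, though the margin in MM1R was narrow, with 18.0 CPM as the highest untreated and 18.6 CPM as the lowest WA value. The log2 fold change was 0.41 (SE 0.18, 95% interval 0.03 to 0.80, adjusted p = 0.169) in MM1S and 0.50 (SE 0.18, 95% interval 0.11 to 0.89, adjusted p = 0.0792) in MM1R by edgeR's quasi-likelihood test.

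With passage as a replicate block, BAG2 in MM1R passed at 0.52 (SE 0.16, adjusted p = 0.0324), where 29.1% of all genes passed. The 3 passages of MM1R disagreed in size, at 1.10, 0.38 and 0.05 on the log2(CPM + 0.5) scale for passages 4, 6 and 7, and the untreated culture of passage 4 was the lowest of all 12 for BAG2, at 11.1 CPM. Without that culture the change in MM1R was 0.30 (adjusted p = 0.206). In MM1S the changes were 0.41, 0.51 and 0.27 for passages 16, 22 and 23.

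BAG1, which links HSP70 to the proteasome and also binds BCL2, was the member with the most reads in untreated cells. It had 2274 to 2620 reads in untreated MM1S and 2095 to 2500 with WA, and 2193 to 2317 in untreated MM1R and 1962 to 2162 with WA. The fitted changes were −0.02 (95% interval −0.24 to 0.20) in MM1S and −0.10 (−0.32 to 0.13) in MM1R, and the groups overlapped in CPM. These intervals leave room for a rise of at most 0.20 and a fall of at most 0.32 on the log2 scale.

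BAG4, also known as the silencer of death domains for its binding to TNF receptors, had 430, 455 and 477 reads in untreated MM1S and 325, 441 and 398 with WA. In MM1R it had 372, 363 and 320 reads untreated and 306, 318 and 295 with WA. The MM1R groups did not overlap, WA being lower, and the MM1S groups did. Neither change passed the test, at −0.15 (95% interval −0.42 to 0.11) in MM1R and −0.14 (−0.41 to 0.12) in MM1S.

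BAG5, which carries several BAG domains and inhibits the ligase parkin, had 706, 666 and 846 reads in untreated MM1S and 688, 853 and 792 with WA. In MM1R it had 717, 741 and 581 reads untreated and 809, 746 and 650 with WA. Scaled to library size, it was higher with WA in all 6 passages, by 0.03 to 0.40 on the log2(CPM + 0.5) scale, while the groups overlapped. That shared direction is a description, as for BAG2. The fitted change was 0.16 in either line (95% interval −0.10 to 0.41 in both) and did not pass.

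BAG6, which captures tail-anchored and mislocalised proteins in the cytosol, had lower values with WA that did not pass the test. It had 347, 409 and 471 reads in untreated MM1S and 282, 328 and 331 with WA, and 355, 355 and 261 reads in untreated MM1R and 274, 299 and 218 with WA. BAG6 was lower with WA in all 6 passages, by 0.19 to 0.37 on the log2(CPM + 0.5) scale, and the groups overlapped in CPM. As for BAG2 and BAG5, that shared direction is a description. By edgeR's quasi-likelihood test the change was −0.30 (SE 0.15, adjusted p = 0.227) in MM1S and −0.25 (SE 0.15, adjusted p = 0.298) in MM1R, and neither passed. The level of BAG6 is uncertain, because the table lists 6 further copies of it, which held 61 and 1 reads in 2 entries and 0 in the others over the 12 libraries, against 3930 for BAG6 itself. The gene lies in the major histocompatibility region of chromosome 6 (GRCh37, chr6:31606805-31620482, − strand, 26 exons), of which the human assembly holds alternative haplotypes.

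Genes on the other strand overlap several members, and the strand setting of the counting is not given in the sources used here. SPINK4 and ZNF451-AS1, which overlap BAG1 and BAG2, had at most 6 and 3 reads in any library, and APOM, which overlaps BAG6, had 0. KLC1, which overlaps BAG5, had 652 to 852 reads, LSM1, which overlaps BAG4, had 475 to 667, and RAB23, which overlaps BAG2, had 74 to 202. For BAG5, BAG4 and BAG2, reads of the overlapping partner cannot be told apart from their own in such stretches. Genes without a symbol also overlap HSPB8 on both strands and BAG4 and BAG5 on the other strand, and their reads were not examined.

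**Figure D2:**
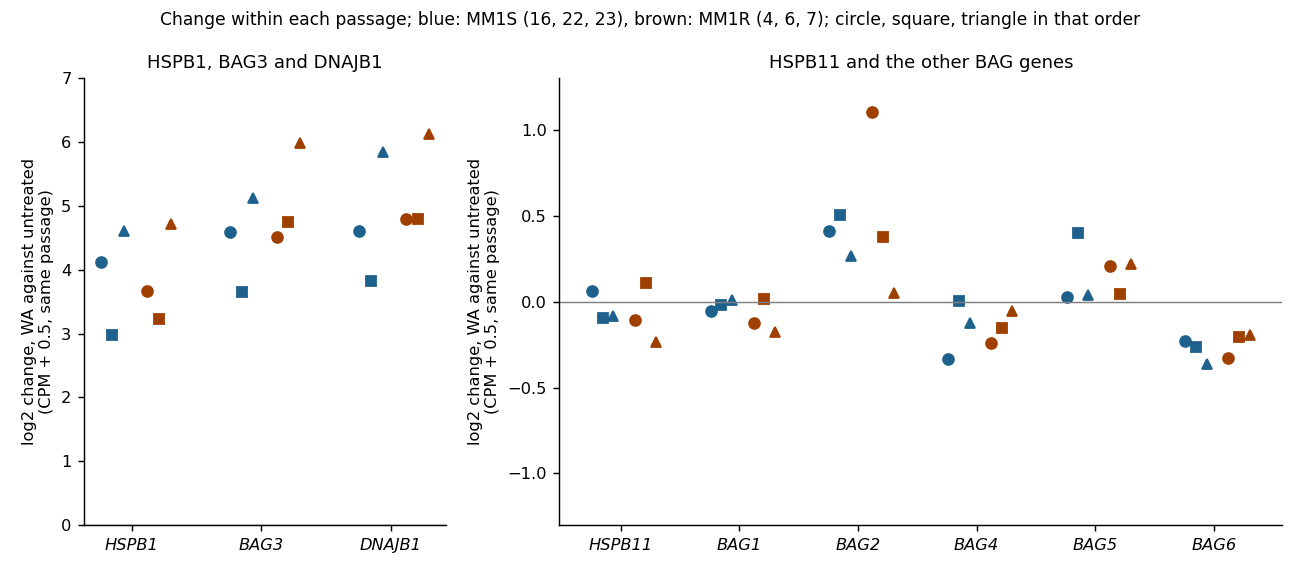
Change with WA within each passage, on the log2(CPM + 0.5) scale, for HSPB1, BAG3 and DNAJB1 on the left and for HSPB11, BAG1, BAG2, BAG4, BAG5 and BAG6 on the right, with separate axes. Points are single passages. BAG6 lies below 0 and BAG2 and BAG5 lie above 0 in all 6, though none of these passed the test without passage as block. Passage 7 is the highest for HSPB1, BAG3 and DNAJB1.

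In MM1R, 3 of the 9 tested members passed the test for WA, all of them higher (HSPB1, HSPB8 and BAG3), where 14% of all tested genes passed in either direction and 7.55% as higher. In MM1S, 2 passed, HSPB1 and BAG3, both higher, where 10.5% of all genes passed and 6.25% as higher. Without HSPB8, which reached the test through the group in which it was high, 2 members were called in either line, and 4.96% of all genes were called higher in both lines. As the members were chosen with earlier results of these data known, these counts beside the shares of all genes are descriptions. The median change over the 8 tested members other than HSPB8 was 0.04 in MM1R and 0.07 in MM1S on the log2 scale, against 0.01 over all tested genes in each. Groups did not overlap for 5 of 9 members in MM1R (33.3% of all genes) and for 3 of 9 in MM1S (30.3%). The count in MM1R includes HSPB8, whose separation was favoured by the way it entered the test.

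**Figure D3:**
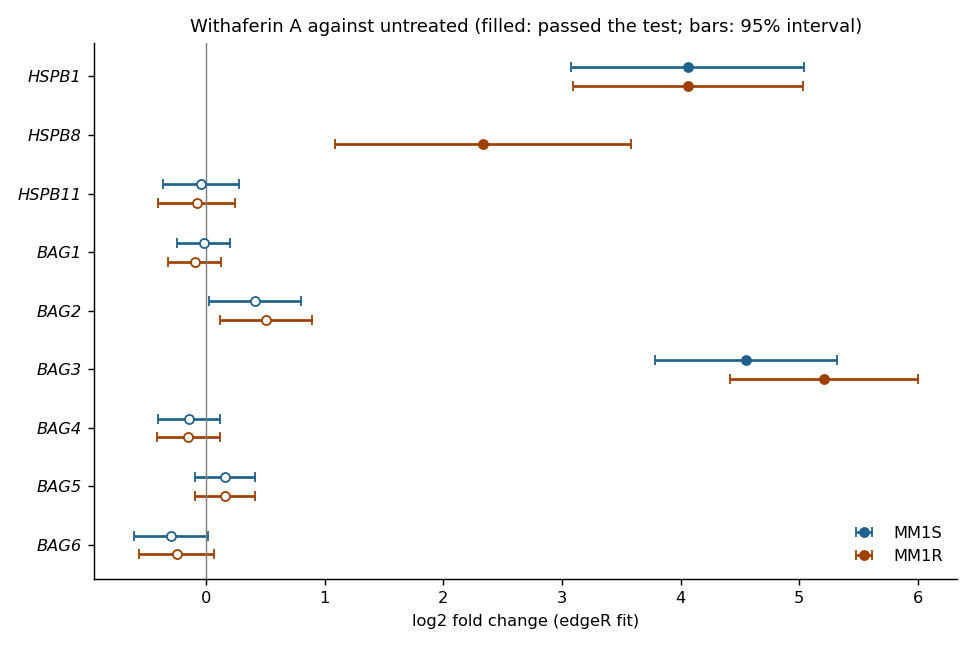
Log2 fold change of WA against untreated cultures for the 9 tested members in MM1S and MM1R, with 95% intervals from the fit of all 12 libraries (n = 3 cultures per group). Filled points passed the test at an adjusted p of 0.05; HSPB1 and BAG3 stand near 4 to 5, HSPB8 is drawn for MM1R alone because MM1S had no reads, and the other 6 members lie within about 0.5 of 0.

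The make-up of the set by reads changed accordingly. Without treatment, the 10 members together took 0.0326% to 0.0360% of a library's reads, and with WA 0.126% to 0.477%. HSPB1 and BAG3 together were 22.6% to 33.1% of the members' reads untreated and 79.0% to 95.3% with WA. The other 8 members summed to 227 to 261 CPM untreated and 228 to 268 CPM with WA, which is almost the same span.

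The ratio of HSPB1 to BAG3 reads, both high under WA, also differed between groups. It was 0.364, 0.367 and 0.401 HSPB1 reads per BAG3 read in untreated MM1S and 0.265, 0.234 and 0.284 with WA. In MM1R it was 0.733, 1.12 and 1.26 untreated and 0.408, 0.391 and 0.523 with WA. Every WA culture was below every untreated culture of its line, and every MM1R culture was above every MM1S culture under the same treatment. The share of gene pairs that separate in this way was not examined, and line and passage cannot be told apart.

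**Figure D4:**
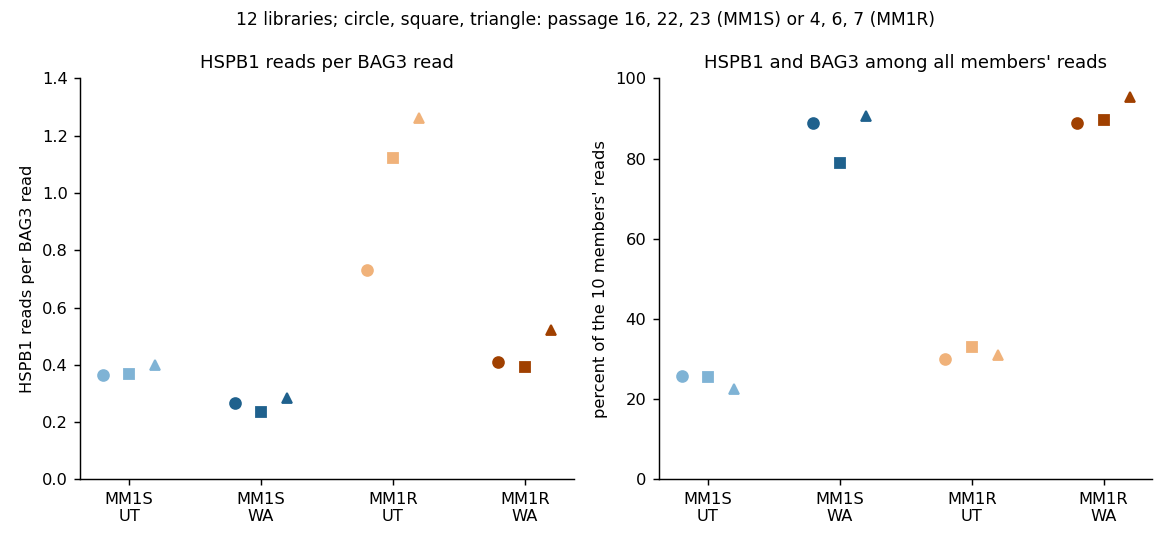
HSPB1 reads per BAG3 read (left) and the percent of the 10 members' reads that fell on HSPB1 and BAG3 (right) in each of the 12 libraries, with symbols for passage. The ratio is lower with WA in either line and highest in untreated MM1R, and the share is 22.6% to 33.1% untreated and 79.0% to 95.3% with WA. Neither was tested.

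Levels of different members can be compared per kilobase of their canonical transcript, which assumes that this transcript is the one in use. In untreated MM1S the order was HSPB11 (37.8 ± 3.64 CPM per kb), BAG1 (33.2 ± 2.30), HSPB1 (28.8 ± 1.50) and BAG3 (23.2 ± 1.97), with SD over n = 3. The ranges of HSPB11 and BAG1 overlapped, and those of the other neighbours among these 4 did not. BAG5 followed at 8.04 CPM per kb, BAG4 and BAG6 at 5.52 and 5.42 with overlapping ranges, and BAG2 at 2.35. In both lines their places in the order carry the limits given above, overlapping genes for BAG5, BAG4 and BAG2 and further copies for BAG6.

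Untreated MM1R had HSPB1 on top, at 72.2 ± 16.7 CPM per kb, and the order below it was as in MM1S, from HSPB11 at 38.4 to BAG2 at 2.35, apart from BAG4 and BAG6, which had 4.60 and 4.61 and overlapped. With WA, BAG3 had 544 ± 217 and HSPB1 480 ± 229 CPM per kb in MM1S, and HSPB1 had 1204 ± 824 and BAG3 786 ± 404 in MM1R. The ranges of the 2 genes overlapped in either line. Within each culture, the ratio of HSPB1 to BAG3 per kb under WA was 0.874, 0.77 and 0.936 at passages 16, 22 and 23 of MM1S, below 1 in all 3. It was 1.35, 1.29 and 1.72 at passages 4, 6 and 7 of MM1R, above 1 in all 3. These ratios were not tested. The next member under WA, HSPB11, had 36.7 ± 2.33 CPM per kb in MM1S and 36.3 ± 5.47 in MM1R.

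The comparison of untreated MM1R with untreated MM1S asks whether resistant cells differ before any drug is given. HSPB1 was higher in all 3 MM1R cultures, which had 41.1 to 64.0 CPM against 21.6 to 23.7 CPM in MM1S. The log2 difference was 1.32 (SE 0.42, 95% interval 0.42 to 2.22, adjusted p = 0.0552 by edgeR's quasi-likelihood test), which did not pass. It passed when only the 6 untreated libraries were fitted (1.34, adjusted p = 0.00166) and when no filter on low counts was applied (1.31), and did not pass in DESeq2 (adjusted p = 0.0616). None of the 9 tested members was called in this comparison, where 2.97% of all genes were. At an adjusted p of 0.05 with no limit on fold, HSPB8 was past the limit, as were 11.9% of all genes, but it had entered the test through MM1R, the line in which it was high.

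HSPB8 had 4 to 9 reads in untreated MM1R and none in MM1S. Its mean in MM1R was 2.38 times the level of 3 reads per library in MM1S, a ratio that leaves out counting error in MM1R. BAG4 was lower in all untreated MM1R cultures than in any of MM1S (18.7 to 19.9 against 22.3 to 23.7 CPM), with a log2 difference of −0.26 (95% interval −0.52 to 0.00, adjusted p = 0.194). BAG3 did not differ beyond the spread, at −0.13 (95% interval −0.80 to 0.55). HSPB1, HSPB8 and BAG4 were the members without overlap between the untreated lines, against 32.3% of all genes, and HSPB8 had entered the test through MM1R.

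With WA in both lines, HSPB8 was the 1 member of 9 called, where 3.04% of all genes were. It had entered the test through these same MM1R cultures, so the call is a description. The mean of HSPB8 in MM1R was 11.6 times the level of 3 reads per library in MM1S, counting error in MM1R again left out. HSPB1 was again higher in MM1R, by 1.33 on the log2 scale (SE 0.40, 95% interval 0.46 to 2.19, adjusted p = 0.0471 by edgeR's quasi-likelihood test), which missed the limit of 0.01. The groups overlapped, at 190 to 546 CPM in MM1S and 528 to 1674 CPM in MM1R, and without the WA culture of passage 7 the difference was 0.63. BAG3 was 0.53 higher in MM1R (95% interval −0.13 to 1.19, adjusted p = 0.282), with overlapping groups, and 0.05 higher without that culture. HSPB8 was the sole member without overlap, against 29.1% of all genes, which was favoured by the way it entered the test.

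**Figure D5:**
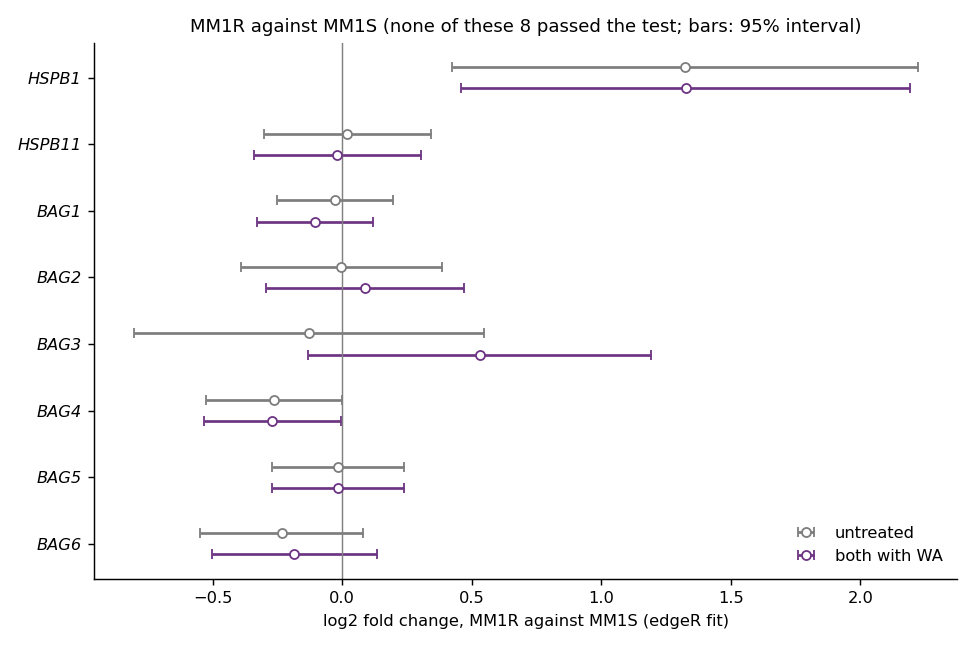
Log2 difference of MM1R against MM1S for the 8 tested members with reads in both lines, untreated and with WA in both, with 95% intervals (n = 3 cultures per group). HSPB1 lies near 1.3 in both comparisons with intervals above 0, but did not pass the limit of an adjusted p of 0.01; the other members lie within about 0.5 of 0.

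Whether WA acted differently on the lines was tested as an interaction. No member passed, and no gene of the 14085 did (0%) by edgeR's quasi-likelihood test, with 97 genes and no member at an unadjusted p under 0.05. Evenly spread p-values would have put more genes under that limit, so the test was conservative here. The lack of calls therefore does not show that the lines responded alike. The test used no passage pairs, and no member was called with passage as block either. For HSPB1 the difference between the WA effects was 0.00 on the log2 scale, with a 95% interval of −1.38 to 1.38, and −0.69 without the WA culture of passage 7. BAG3 was 0.66 higher in MM1R (95% interval −0.29 to 1.61), and 0.19 without the WA culture of passage 7. BAG2 differed by 0.09 (95% interval −0.46 to 0.64). HSPB8 could not be compared, since MM1S gave no reads.

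Within passages, the changes of HSPB1 were 4.12, 2.98 and 4.61 at passages 16, 22 and 23 of MM1S, and 3.67, 3.23 and 4.72 at passages 4, 6 and 7 of MM1R, on the log2(CPM + 0.5) scale. Those of BAG3 were 4.60, 3.64 and 5.13 in MM1S and 4.51, 4.75 and 5.98 in MM1R. DNAJB1, an HSP40 co-chaperone that is no member, changed by 4.61, 3.82 and 5.85 in MM1S and 4.80, 4.79 and 6.13 in MM1R. All 3 genes changed least at passage 22 and most at passage 23 in MM1S, and most at passage 7 in MM1R. DNAJB1 was the gene most like BAG3 over these same libraries (r = 0.998), so its order is no separate support.

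By Pearson correlation of log2 CPM over the 12 libraries, among 12321 genes with a mean of at least 1 CPM, the genes most like BAG3 were DNAJB1 (r = 0.998), HSPA1B_2 (r = 0.997) and HSPA6 (r = 0.996). Those most like HSPB1 were ZFAND2A (r = 0.988), KIAA0895 (r = 0.982) and USP30 (r = 0.982). The 12 libraries fall into the same 4 groups for all genes, and these values are descriptions without a test. HSPA1B_2 is a numbered copy entry of HSPA1B, whose own entry had at most 1.04 CPM in any library. How reads were divided between these entries was not tested.

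Other small heat shock protein genes were silent or nearly so. None of the 7 listed (HSPB2, HSPB3, HSPB6, HSPB7, HSPB9, ODF1 and CRYAA) passed the filter, with at most 22 reads in any library. Of the small heat shock protein genes examined, HSPB11 apart, HSPB1 was the only one with more than 51 reads in any library.

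Among the other nucleotide exchange factors of HSP70, which do the same step as BAG proteins with unrelated domains, 3 of 8 rose in either line and none fell, where 7.55% of all genes rose in MM1R and 6.25% in MM1S. These were HSPH1 (HSP110), with log2 fold changes of 3.62 (SE 0.21) in MM1R and 3.30 (SE 0.21) in MM1S, HSPA4L with 1.54 (SE 0.19) and 1.35 (SE 0.19), and HSPA4 with 1.34 (SE 0.10) and 1.35 (SE 0.10). The median of the list was 0.19 in MM1R and 0.31 in MM1S, against 0.01 over all tested genes in each. This list and those below were chosen with earlier results of these data known, so their counts are descriptions. HSPBP1, SIL1, HYOU1, GRPEL1 and GRPEL2, which serve the cytosol, the endoplasmic reticulum and mitochondria, did not pass.

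Of the partners of BAG3 and HSPB8 in assisted autophagy, 7 of 10 were tested, and 3 rose and 1 fell in either line, where 14% of all genes passed in MM1R and 10.5% in MM1S. The cytosolic chaperone HSPA8 rose by 1.75 (SE 0.16) in MM1R and 1.78 (SE 0.16) in MM1S, the adaptor YWHAG by 0.63 (SE 0.11) and 0.61 (SE 0.11), and MAP1LC3B, the LC3 protein of autophagosomes, by 0.45 (SE 0.09) and 0.39 (SE 0.09). STUB1 fell by 0.38 (SE 0.12, adjusted p = 0.0495) in MM1R and by 0.41 (SE 0.12, adjusted p = 0.0438) in MM1S, close to the limit of edgeR's quasi-likelihood test. The autophagy receptor SQSTM1 was not tested, with at most 12 reads in any library and at most 10 for its second entry in the table, and how its reads were divided was not tested.

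Among 7 partners of BAG6 in the handling of tail-anchored proteins, 1 passed in each line, UBL4A, a subunit of the BAG6 complex. It fell by 0.79 (SE 0.15, adjusted p = 0.00436) in MM1R and by 0.56 (SE 0.15, adjusted p = 0.0323) in MM1S by edgeR's quasi-likelihood test. None rose, where 14% of all genes passed in MM1R and 10.5% in MM1S in either direction. A count of 1 in 7 is near these shares, and nothing is read from it. Of 15 tested subunits of the IFT-B complex that HSPB11 belongs to, 1 rose in MM1R and none passed in MM1S, which is near the 7.55% of all genes that rose in MM1R. That subunit was TTC30A, named here after its value was seen, with 0.72 (adjusted p = 0.0454) in MM1R and 0.70 (adjusted p = 0.0578) in MM1S. Of the 3 heat shock factor genes, HSF2 fell by 0.46 (adjusted p = 0.0238) in MM1R and had −0.24 (adjusted p = 0.236) in MM1S, and was likewise named after its value was seen. With 3 genes, and 14% of all genes called in MM1R, nothing is read from this count. HSF1, the main stress-activated factor, and HSF4 did not pass in either line, and no gene of these lists was called between the lines or in the interaction.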

How the data were processed

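RNA of 12 cultures of MM1S and MM1R, 3 in each of 4 groups set by the labels' cell line and treatment, with passage as replicate number, was analysed from the raw counts per gene that the authors deposited. Per the submitters' processing notes, FastQC 0.11.5, STAR 2.7.3a, DESeq2 and hg19 were used. The gene annotation and strand setting of the counting are not given in the sources used here. The authors deposited normalized counts as well, which were not used.

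Genes were filtered with edgeR's filterByExpr (minimum count 10; 14085 of 43735 kept) and TMM was the scaling. All 12 libraries entered 1 quasi-likelihood fit in edgeR 4.0.16 (R 4.3.3, limma 3.58.1) with Benjamini-Hochberg adjustment, and was tested on simulated data. Called were WA effects and the interaction at an adjusted p of 0.05, and line differences at 0.01 with a log2 fold change of 1, the study's limits. Intervals use the moderated degrees of freedom. Folds against groups at 0 used a floor of 3 reads per library, and changes within a passage a pseudocount of 0.5 CPM. Reads carry no molecular identifiers, so floors cover counting error only. Replicates are cultures of different passage, and pairs of replicates differed beyond sampling noise.

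Whether passage pairs cultures was checked by correlating deviations from group means. Correlations within a passage lay at 0.74, 0.26 and 0.49 in MM1S (passages 16, 22 and 23). In MM1R they lay at 0.43, 0.22 and 0.25 (passages 4, 6 and 7), where those across passages reached at most 0.11. Across passages of MM1S they reached 0.42, above the value within passage 22. As every value within a passage was over 0.1, the numbers were taken to pair cultures. The reported tests have no block, and the fit with passage as block is given where it changes a call.

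All 10 members are named. Other lists are given as counts, with the 2 largest and 2 smallest changes among genes called in both lines. For members called in both lines, the 3 genes with the highest correlation are named. Members and lists were chosen with earlier results of these data known. Gene positions are from GENCODE for GRCh37, and promoter windows from RefSeq for GRCh38.p14.

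Alternatives were DESeq2 1.42.0, its size factors, no filter, at least 10 reads in every library, the 6 libraries compared, passage as block, other limits, copies added to their gene, and each library left out.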

Additional observations from a re-analysis of the deposited data

How the results depend on the processing

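Of 812 values of the members' results under the alternatives, 742 kept direction and side of the limit, 5 lost and 7 gained a call, and 58 turned direction, none of the last for a called result. The cause was not tested, except that fewer genes or samples enter some fits. With no filter on low counts, the calls were 811 genes and 2 members (HSPB1 and HSPB8) between untreated lines (419 and 0 as reported), 819 genes and the same 2 members between lines with WA (428 and 1), and 11 genes in the interaction (0). With at least 10 reads in every library, which removes HSPB8, they were 234 and 222 genes, and 0 members with WA. DESeq2 called 1 member (HSPB8) between untreated lines and 1 gene in the interaction, and the fit of 6 libraries called 1 member (HSPB1). At an adjusted p of 0.05 with no limit on fold, 1681 genes and 1 member were called untreated and 1690 genes and 2 members with WA. At an adjusted p of 0.01, WA called 812 genes in MM1R and 556 in MM1S.

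With passage as replicate block, WA called 4094 genes in MM1R (1973 as reported) and 3399 in MM1S (1476) by edgeR, and 3424 and 2930 by DESeq2, with 6 genes in the interaction. BAG2 in MM1R was gained in both (0.52 and 0.51), HSPB8 in MM1R was lost in DESeq2 (adjusted p = 0.408), and the block changed no other member's call. No paired analysis was possible between the lines because they share no passage number.

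With 1 library left out, the calls ranged from 268 to 537 genes between untreated lines, 264 to 649 with WA, 950 to 2396 for WA in MM1R and 726 to 1621 in MM1S, and 2 to 3 members for WA in MM1R. Counts moved by over 1.5 times without these cultures. For WA in MM1R they were 950 and 1215 genes without untreated passages 6 and 7, and 1297 and 1074 without WA passages 4 and 7. For WA in MM1S they were 729 and 726 without untreated passages 22 and 23, and 930 and 816 without WA passages 16 and 23. Between lines with WA they were 649, 264 and 283 without MM1S passages 16, 22 and 23 and 272 without MM1R passage 6, and between untreated lines 268 without MM1R passage 6.

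Small uncalled log2 values turned sign. With 1 library left out the ranges were, between untreated lines, HSPB11 −0.13 to 0.13, BAG1 −0.092 to 0.018, BAG2 −0.13 to 0.19, BAG5 −0.10 to 0.071, and in the interaction, HSPB11 −0.15 to 0.11, BAG4 −0.12 to 0.084, BAG5 −0.089 to 0.082, HSPB1 −0.69 to 0.38, BAG6 −0.051 to 0.15, BAG2 −0.11 to 0.23, and for WA in MM1S, BAG1 −0.073 to 0.048, HSPB11 −0.11 to 0.034, and between lines with WA, BAG5 −0.10 to 0.044, HSPB11 −0.081 to 0.10, and for WA in MM1R, HSPB11 −0.19 to 0.063. In the interaction, DESeq2's size factors gave 0.00062 for BAG4 and 0.0089 for BAG5, at least 10 reads in every library 0.022 and 0.030, DESeq2 0.00026 and 0.0090, and the block in DESeq2 0.0081 and 0.011, with 0.0021 for BAG5 under the block in edgeR. HSPB1 there was −0.0044 with no filter and −0.056 and −0.049 with the block. At least 10 reads in every library gave 0.0098 for HSPB11 and 0.016 for BAG5 between lines with WA, and the 6 untreated libraries 0.011 for BAG2.
Depth limits HSPB8 and CRYAB, whose counts lie near the floor.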
